A study of Mus musculus with 80 samples.

Results

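Atf4, Ddit3, Trib3, Asns, Chac1, Sesn2, and Ppp1r15a are genes of the integrated stress response and were taken from the expression tables by gene symbol. No cut on their values was made, but the genes were chosen with earlier results of these data known. All 7 were listed, among 15919 genes in the table of the sort comparison and 16000 genes in the table of the cell preparation comparison. The integrated stress response begins when a stress-sensing kinase phosphorylates the translation initiation factor eIF2, which lowers general protein synthesis while the Atf4 mRNA is translated more. The ATF4 protein then activates genes for amino acid supply, for cell death and for the phosphatase arm that ends the response. In microglia, the resident macrophages of the brain, such stress genes are of interest because dissociating a brain into single cells exposes the cells to warmth, enzymes and shear before their RNA is fixed.

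All samples came from brains of mice with the genotype Cx3cr1(Jung)-cre/Ert2+;NuTRAP+, in which Cre driven from the Cx3cr1 locus switches on an eGFP-tagged ribosomal protein after tamoxifen. Every group, controls included, carried these alleles and received tamoxifen at about 3 months of age, 100 mg/kg each day by intraperitoneal injection. Cx3cr1 is also active in other macrophages, so the tag is not limited to microglia by its promoter. TRAP is the RNA pulled down with the tagged ribosomes, and Input is the RNA of the same homogenate before the pull-down. The homogenization and wash buffers held cycloheximide, which stalls ribosomes on their mRNA. The sort comparison held 48 libraries in 12 groups. Its preparations were intact tissue (Tissue), an enzymatically and mechanically dissociated suspension (Cell), and cells taken from such suspensions by CD11b beads (autoMACS), by cartridge sorting (Tyto), by cytometer sorting (FACSAria) or by beads followed by the cartridge (autoMACS-to-Tyto). Tissue, Cell, autoMACS, and FACSAria had 4 mice, Tyto had 5 and autoMACS-to-Tyto had 3, each with a TRAP and an Input library. The cell preparation comparison held 32 libraries in 8 groups of 4 mice. These were Tissue, a cold mechanical preparation (Dounce), and dissociated suspensions made without inhibitors, Cell(-)Inhib, or with inhibitors of transcription and translation (actinomycin D, triptolide, and anisomycin) in the warm step, Cell(+)Inhib. The Tissue mice of both comparisons and the Cell mice were the same 4 animals, Cell(-)Inhib and Cell(+)Inhib shared their 4 mice, some sorts shared mice, and the Dounce mice were used for nothing else.

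The mm10 coordinates of the genes are chr15:80255184-80257541 for Atf4, chr10:127290793-127296288 for Ddit3 and chr2:119351242-119354327 for Chac1, all on the plus strand. On the minus strand lie Trib3 at chr2:152337425-152344060, Asns at chr6:7675171-7693182, Sesn2 at chr4:132492807-132510456 and Ppp1r15a at chr7:45522917-45526268. ATF4 pairs with C/EBP proteins on composite elements, and the letters TGATGNAA were searched on both strands of the RefSeq promoter of each gene (GRCm38.p6, 250 bases before the start and the first bases after it), together with the palindromic cAMP response element TGACGTCA. All 7 genes matched a promoter, and 4 held a match. The upstream 250 bases of 3 of these are printed because the genes changed most between preparations, with the matched letters in capitals and the strand of the gene read 5′ to 3′. Asns, chr6:7693210-7693459, held TGATGAAA on its own strand 15 bases before the start. For Asns this start is that of the RefSeq promoter, which lies upstream of the gene start at 7693182 given above. Chac1, chr2:119350992-119351241, held TGATGCAA on the opposite strand, printed here as TTGCATCA, 185 bases before the start. Ppp1r15a, chr7:45526269-45526518, held TGACGTCA 4 bases before the start.
Asns promoter: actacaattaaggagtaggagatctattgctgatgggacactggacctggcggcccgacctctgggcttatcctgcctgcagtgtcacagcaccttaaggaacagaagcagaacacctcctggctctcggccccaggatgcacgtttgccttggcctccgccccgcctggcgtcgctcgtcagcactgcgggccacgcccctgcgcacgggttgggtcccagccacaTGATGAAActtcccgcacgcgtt
Chac1 promoter: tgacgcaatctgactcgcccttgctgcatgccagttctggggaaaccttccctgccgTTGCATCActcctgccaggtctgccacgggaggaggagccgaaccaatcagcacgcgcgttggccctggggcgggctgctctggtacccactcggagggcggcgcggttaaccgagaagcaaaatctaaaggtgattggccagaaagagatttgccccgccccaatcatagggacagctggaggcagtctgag
Ppp1r15a promoter: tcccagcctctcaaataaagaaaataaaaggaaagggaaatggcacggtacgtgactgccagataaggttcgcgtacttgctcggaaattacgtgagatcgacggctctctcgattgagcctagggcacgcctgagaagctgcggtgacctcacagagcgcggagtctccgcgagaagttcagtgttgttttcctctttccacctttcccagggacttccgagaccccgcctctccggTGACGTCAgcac
Trib3 held TGATGTAA on the opposite strand, 14 bases after the start, and the promoters of Atf4, Ddit3, and Sesn2 held neither set of letters. Over all 32851 promoters in the table, 3.97% held TGATGNAA and 1.79% held TGACGTCA. A match describes the letters only.

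Counts over the listed genes ranged from 7129464 to 20168116 per library in the sort comparison and from 2471448 to 14650287 in the cell preparation comparison, with Dounce-TRAP lowest (2471448 to 4724538). Levels are given as CPM, a gene's count scaled to a common library size by the TMM method, with TRAP and Input of each comparison scaled separately. Microglial markers (7 genes) summed to 4066-4944 CPM in Tissue-TRAP and 229-354 CPM in Tissue-Input, to 27732-29656 CPM in Cell-TRAP, and to 31795-39469 CPM in the sorted TRAP libraries. Neuronal markers (6 genes) summed to 4678-5386 CPM in Tissue-TRAP and 5573-5891 CPM in Tissue-Input, to 100-292 CPM in Cell-TRAP, to 459-1056 CPM in Cell-Input, and to 2.99-8.32 CPM in sorted TRAP. Tissue-TRAP thus held neuronal transcripts beside the enriched microglial ones. No neuronal or microglial marker was at 0 throughout a group.

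Dissociation was accompanied by changes in opposite directions within this gene group. In Cell-TRAP against Tissue-TRAP, Ppp1r15a, the eIF2 phosphatase subunit that ends the response, was 14.2-fold higher. Asns, asparagine synthetase, was 23.3-fold lower, and Chac1, a glutathione-degrading enzyme, was 12.9-fold lower. Atf4, Ddit3, Trib3, and Sesn2 were not called, where a call needed a fold change above 2 and a Benjamini-Hochberg adjusted p (FDR) under 0.1 in edgeR's quasi-likelihood test. Thus 3 of 7 members were called, 1 higher and 2 lower, in a comparison in which 54.3% of all tested genes were called, and their median log2 fold change was 0.17 against -0.01 for all genes. Cell(-)Inhib-TRAP, made from other mice, gave calls for Asns and Chac1 lower and Ppp1r15a higher against Tissue-TRAP of the cell preparation comparison, again 3 of 7, with 53.2% of all genes called and a median of -0.27 for the members against -0.13 for all genes.

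Atf4 encodes the transcription factor of the response. Its TRAP level in the sort comparison was 117, 116, 127, and 119 CPM in Tissue and 154, 151, 138, and 134 CPM in Cell. The ranges did not overlap, yet the difference was small, 1.21-fold on the TMM scale (log2 0.27 ± 0.12 SE, edgeR adjusted p = 0.0383), and its sign turned with DESeq2's size factors (-0.06) and on the authors' log2 values (-0.17). Sorted cells ranged from 121 CPM to 213 CPM, and the autoMACS libraries at 173, 198, 208, and 213 CPM stood at the top of the order of means. The other sorts held 145, 139, and 129 CPM (autoMACS-to-Tyto), 125, 144, 144, 178, and 129 CPM (Tyto), and 162, 150, 121, and 206 CPM (FACSAria). Sorted-TRAP, the mean of the 4 sorts with equal weight, was above Tissue-TRAP by 0.40 ± 0.10 log2 (adjusted p = 0.000388), which is under the fold limit and was -0.06 on the authors' log2 values. Among neighbours in the order of mean TRAP levels, autoMACS-to-Tyto and Tissue were the only pair whose ranges did not overlap.

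In the cell preparation comparison, Atf4 in TRAP was 156, 171, 187, and 150 CPM in Tissue, 177, 180, 212, and 194 CPM in Cell(-)Inhib, 147, 146, 145, and 133 CPM in Cell(+)Inhib, and 140, 136, 132, and 135 CPM in Dounce. All 4 libraries with inhibitors lay below all 4 without, a difference of 1.34-fold (log2 -0.42 ± 0.09, edgeR adjusted p = 0.0179) that did not reach the fold limit. Tissue also lay above Cell(+)Inhib without overlap, whereas Cell(-)Inhib overlapped Tissue.

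Atf4 in Input followed another order. The level was 133, 138, 130, and 130 CPM in Tissue, 111, 128, 107, and 105 CPM in Cell, and 162 CPM or more in every sorted library, where autoMACS reached 446 CPM in 1 of its 4 libraries. Sorted-Input was 1.91-fold above Cell-Input (log2 0.93 ± 0.13, adjusted p = 6.9e-07), just under the fold limit, and it passed that limit, at up to 1.01 log2, without 1 of the Cell libraries or 1 of the Tyto libraries. Dounce-Input, at 87.5, 72.3, 102, and 82 CPM, lay below Tissue-Input at 193, 203, 174, and 185 CPM and was called 2.2-fold lower (log2 -1.14 ± 0.11, adjusted p = 9.5e-09).

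Ddit3 encodes CHOP, a transcription factor linked to cell death under lasting stress. In TRAP of the sort comparison it was 20.6, 24.5, 23.9, and 22.6 CPM in Tissue, 27.9, 21.6, 18.4, and 16.6 CPM in Cell, and between 16.7 CPM and 34.2 CPM in the sorted libraries. Neighbouring groups in the order overlapped throughout, and Cell differed from Tissue by -0.12 ± 0.18 log2 (95% interval -0.48 to 0.24). Ddit3 stood at 32.9, 31.3, 37.9, and 22.8 CPM in Tissue-TRAP of the preparation comparison, 21.8, 24.2, 29.7, and 27.9 CPM in Cell(-)Inhib, 22.8, 22.8, 20.8, and 22.1 CPM in Cell(+)Inhib, and 8.53, 13.2, 6.34, and 16.1 CPM in Dounce. Dounce was the one preparation that stood below all others without overlap. It was called 2.79-fold below Tissue (log2 -1.48 ± 0.23, edgeR adjusted p = 1.36e-05) and 2.31-fold below Cell(-)Inhib, and it missed the limit against Cell(+)Inhib at 1.98-fold (adjusted p = 0.00138), a value that DESeq2's size factors moved to -1.01 log2 and past it. In Input, Ddit3 was 42.6, 44, 44.8, and 42.4 CPM in Tissue and 22, 23.3, 17.6, and 22.7 CPM in Dounce, 2.02-fold lower (log2 -1.02 ± 0.11, adjusted p = 8.44e-08), which fell to -0.94 and under the limit without 1 Dounce library.

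Ppp1r15a, also named GADD34, recruits a phosphatase to eIF2 and so restores translation. It was the one member called higher than Tissue in Cell, in sorted cells and in Cell(-)Inhib, in TRAP and in Input. In TRAP of the sort comparison the Tissue libraries held 12.4, 13.4, 11.3, and 9.71 CPM and the Cell libraries 271, 173, 112, and 107 CPM. The lowest Cell library was thus far above the highest Tissue library, although the Cell libraries also differed among themselves. The difference was 3.82 ± 0.29 log2 (edgeR adjusted p = 8.98e-12). In the same contrast all 7 microglial markers were higher (median 2.72 log2) and all 6 neuronal markers were lower (-5.19). Their part in the rise was not tested.

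Sorted cells held levels that overlapped those of Cell. Ppp1r15a in TRAP was 174, 181, 178, and 147 CPM after autoMACS, 127, 141, and 110 CPM after autoMACS-to-Tyto, 177, 201, 136, 269, and 145 CPM after Tyto, and 249, 185, 146, and 335 CPM after FACSAria. Sorted-TRAP differed from Cell-TRAP by 0.07 log2 and from Tissue-TRAP by 3.89 ± 0.27 log2 (14.9-fold, adjusted p = 7.16e-13). The largest difference among the 4 sorts was 0.86 log2 (adjusted p = 0.117), and it passed both limits, at 1.02, only when the lowest FACSAria library was left out.

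Ppp1r15a was the only member called between suspensions with and without inhibitors. TRAP levels were 184, 171, 227, and 292 CPM in Cell(-)Inhib and 22.5, 25, 21.4, and 24 CPM in Cell(+)Inhib, beside 18.8, 17.2, 14.5, and 14.1 CPM in Tissue and 21.3, 15.8, 43.3, and 12.5 CPM in Dounce. Cell(+)Inhib was 9.4-fold below Cell(-)Inhib (log2 -3.23 ± 0.26, edgeR adjusted p = 1.37e-07), 1 of 7 members in a comparison that called 0.638% of all genes. It still lay above every Tissue library, at 1.44-fold (log2 0.52 ± 0.25, adjusted p = 0.071), under the fold limit. Dounce overlapped both Tissue and Cell(+)Inhib, with differences of 0.48 ± 0.27 log2 from Tissue and -0.04 from Cell(+)Inhib (95% interval -0.57 to 0.48).

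Input gave the same direction with a smaller size for Ppp1r15a in suspensions. Tissue-Input held 15.8, 15, 14, and 12.4 CPM, Cell-Input 63.6, 67.6, 55.7, and 51.4 CPM, and the sorted Input libraries from 135 CPM to 310 CPM, 3 levels without overlap. Cell-Input was 4.16-fold above Tissue-Input (log2 2.06 ± 0.21, adjusted p = 1.08e-08) and Sorted-Input was a further 3.2-fold above Cell-Input (log2 1.68 ± 0.18, adjusted p = 7.57e-09). In Cell(-)Inhib-Input the level was 77.4, 86.6, 95.1, and 111 CPM and in Cell(+)Inhib-Input 36.7, 41.2, 31.7, and 35.8 CPM, a 2.55-fold fall (log2 -1.35 ± 0.15, adjusted p = 1.18e-05). Microglial markers moved with these Input levels, from 229-354 CPM in Tissue to 4466-5939 CPM in Cell and 16876-36707 CPM in sorted cells, and their part in the rise was not tested. Between the suspensions, where Ppp1r15a fell with inhibitors, the markers stood at 4659-8237 CPM without and 6447-9383 CPM with them.

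**Figure D1:**
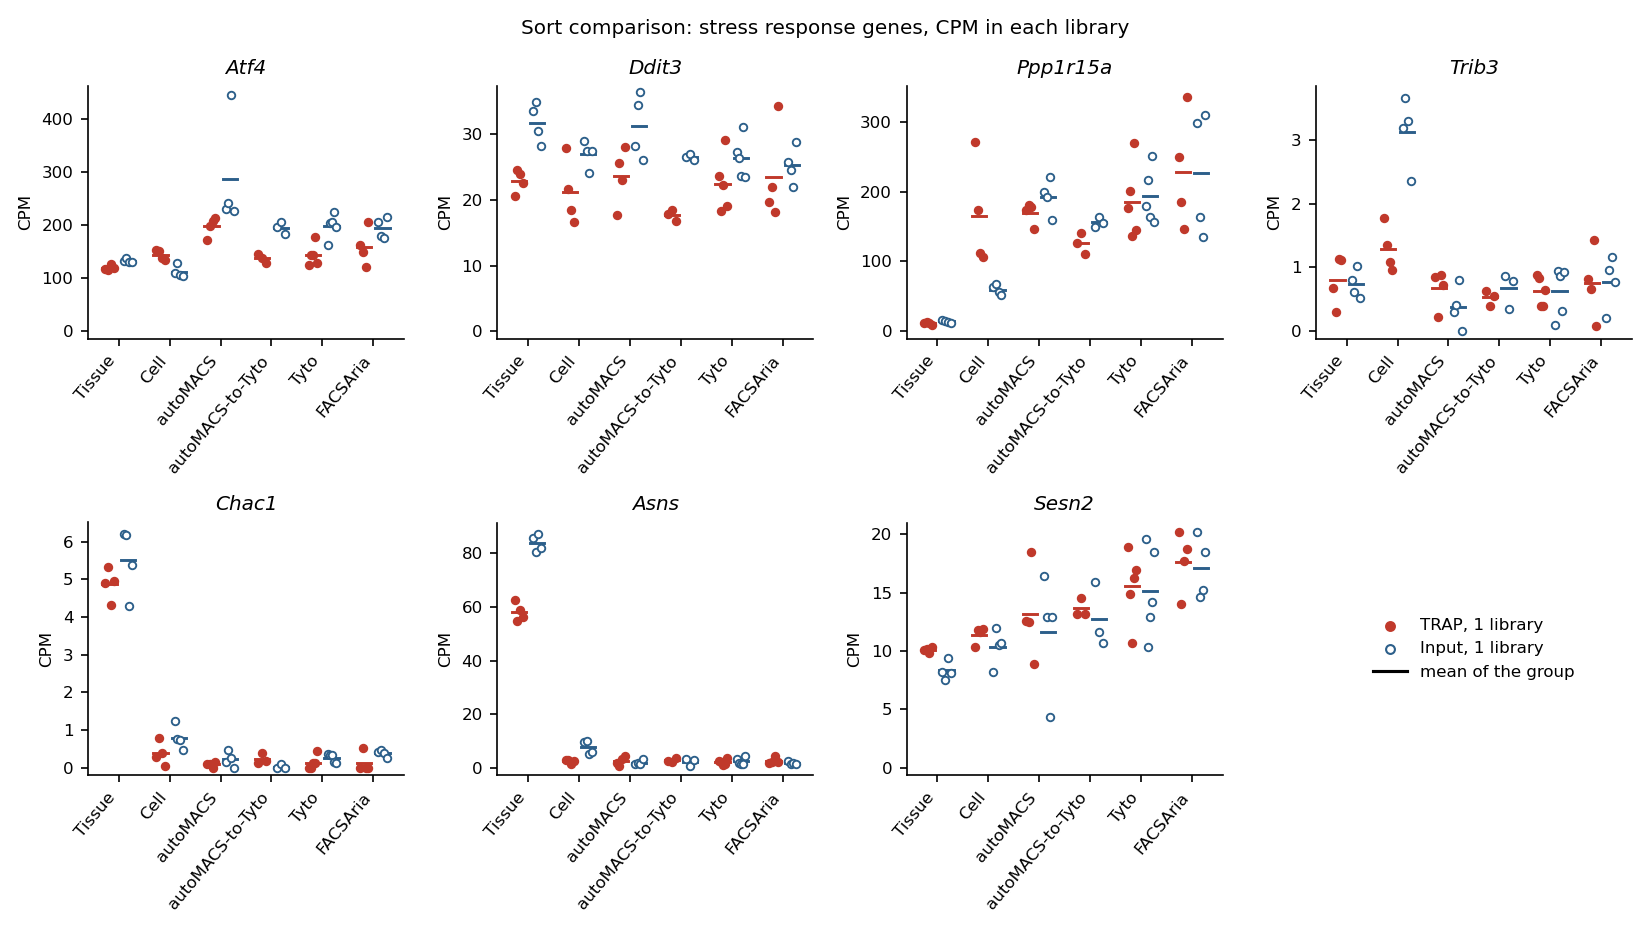
CPM of each member (one panel each) in every library of the sort comparison by preparation, red filled circles for TRAP, blue open circles for Input and a bar for each mean, scaled separately for TRAP and Input. Ppp1r15a in TRAP sits at 9.71-13.4 CPM in Tissue and at 107 CPM or above in every other preparation, while Asns and Chac1 are high in Tissue alone.

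Trib3 encodes a pseudokinase that ATF4 and CHOP induce and that restrains ATF4. Its level was low, so its values carry wide errors. In TRAP of the sort comparison it was 0.676, 0.31, 1.13, and 1.12 CPM in Tissue, 1.78, 1.35, 1.09, and 0.966 CPM in Cell, and 0.078 to 1.43 CPM in sorted libraries, and neighbouring groups overlapped throughout. Cell differed from Tissue by 0.66 ± 0.49 log2, and Sorted-TRAP was 1.99-fold below Cell-TRAP (SE 0.38 log2, edgeR adjusted p = 0.0309), which missed the fold limit narrowly and passed it at -1.01 log2 with DESeq2's size factors.

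Trib3 in Input showed what TRAP did not. Cell-Input held 3.18, 3.66, 3.3, and 2.35 CPM, above every Tissue-Input library (0.802, 0.619, 1.02, and 0.529 CPM) and every sorted Input library (0 to 1.17 CPM). The increase over Tissue was 4.16-fold (log2 2.06 ± 0.53, edgeR adjusted p = 0.00149) and the decrease from Cell to Sorted 5.2-fold (log2 -2.38 ± 0.38, adjusted p = 4.88e-06). Cell(-)Inhib-Input (3.14, 2.73, 3.69, and 2 CPM) and Cell(+)Inhib-Input (2.65, 2.56, 3.9, and 3.07 CPM) likewise lay above Tissue-Input (1.41, 0.723, 0.632, and 0.561 CPM), 3.4-fold (adjusted p = 0.00096) and 3.59-fold (adjusted p = 0.000601). With and without inhibitors differed by 0.08 log2.

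In the same Input libraries markers of other cells moved with Trib3. Oligodendrocyte markers (5 genes) went from 2976-3557 CPM in Tissue to 9115-13525 CPM in Cell, endothelial markers (4 genes) from 37.9-49.5 CPM to 689-1323 CPM, and astrocyte markers (5 genes) from 900-983 CPM to 3358-4209 CPM before falling to 135-273 CPM in sorted cells. Blood markers, 3 of 4 measured, went from 88.3-151 CPM to 2097-3212 CPM. Their part in the Trib3 change was not tested. Dounce-Input held 0.826, 2.36, 0.767, and 1.71 CPM of Trib3, which overlapped Tissue. Its blood markers (8635-10145 against 103-187 CPM in Tissue-Input of that comparison) and oligodendrocyte markers (6281-7197 against 3996-4984 CPM) were higher. Its endothelial markers (22.8-29.1 against 55.2-61.4 CPM) and astrocyte markers (340-925 against 1040-1135 CPM) were lower. The part of these markers was not tested either.

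Chac1 encodes a cytosolic enzyme that degrades glutathione. It was present in Tissue, and in TRAP every other preparation held 10 counts or fewer per library. The 4 Tissue-TRAP libraries of the sort comparison held 80, 86, 88, and 89 counts (4.91, 5.34, 4.32, and 4.97 CPM), whereas Cell-TRAP held 4, 10, 7, and 1 counts (0.285, 0.796, 0.402, and 0.0604 CPM). Their ranges lay far apart, and the difference was -3.69 ± 0.68 log2 (edgeR adjusted p = 2.47e-05). After sorting, the counts were 2, 2, 0, and 3 in autoMACS-TRAP, 2, 6, and 2 in autoMACS-to-Tyto-TRAP, 0, 0, 2, 2, and 8 in Tyto-TRAP, and 0, 8, 0, and 0 in FACSAria-TRAP. With 343 counts in Tissue-TRAP against 7 in autoMACS-TRAP, the ratio was 50.2 after depth (95% counting interval 24.1 to 126).

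In the cell preparation comparison Chac1 gave 95, 88, 67, and 75 counts in Tissue-TRAP, 2, 3, 0, and 0 in Cell(-)Inhib-TRAP, 4, 9, 4, and 7 in Cell(+)Inhib-TRAP, and 2, 4, 0, and 0 in Dounce-TRAP. The Tissue libraries stood far above all others, and the suspensions and Dounce overlapped. The ratio of Tissue-TRAP to Cell(-)Inhib-TRAP was 78.4 (95% counting interval 33.3 to 243, from 325 against 5 counts, edgeR adjusted p = 2.21e-07), and the fitted decreases were 14.5-fold for Cell(+)Inhib (log2 -3.86 ± 0.58, adjusted p = 8e-06) and 19.3-fold for Dounce (log2 -4.27 ± 0.69, adjusted p = 2.33e-05). The Dounce value lay between -5.18 and -3.90 log2 when 1 library was left out, with -5.18 without mouse 180. Counting intervals are too narrow for such values, because small counts in these tables tend to come in pairs: 24052 values of 2 stood beside 7820 values of 3 in the sort table. In Input the pattern was alike, with 6.2, 6.19, 4.3, and 5.39 CPM in Tissue, 1.23, 0.756, 0.745, and 0.47 CPM in Cell (6.85-fold lower, log2 -2.78 ± 0.43, adjusted p = 4.43e-06), and 0 to 0.481 CPM in sorted cells. Dounce-Input held 0.826, 0.41, 1.15, and 0.683 CPM of Chac1, below Tissue-Input at 8.34, 6.5, 7.68, and 10.2 CPM (10.9-fold, log2 -3.45 ± 0.50, adjusted p = 4.04e-06).

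Asns encodes the enzyme that makes asparagine and is a classical target of ATF4. In TRAP it was 62.8, 54.7, 59, and 56.3 CPM in Tissue and 3.07, 2.87, 1.49, and 2.66 CPM in Cell, a difference of -4.54 ± 0.36 log2 (edgeR adjusted p = 2.19e-11). Sorted TRAP libraries held 0.572 CPM to 4.38 CPM, which overlapped Cell, and the difference from Cell was -0.00 log2. The cell preparation comparison gave 82.2, 66, 70.9, and 75.4 CPM in Tissue-TRAP, 4.47, 1.58, 3.68, and 3.88 CPM in Cell(-)Inhib, 4.6, 1.93, 3.79, and 2.93 CPM in Cell(+)Inhib, and 5.33, 2.4, 11.2, and 6.55 CPM in Dounce. Every library outside Tissue was below every Tissue library, with 21.5-fold (Cell(-)Inhib, log2 -4.43 ± 0.34), 22.1-fold (Cell(+)Inhib, log2 -4.46 ± 0.34), and 12.2-fold (Dounce, log2 -3.61 ± 0.35, adjusted p = 4.27e-08) decreases. Suspensions with and without inhibitors overlapped and differed by -0.04 log2.

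Asns in Input fell in steps. It was 85.8, 80.7, 87.2, and 82.2 CPM in Tissue, 9.54, 9.9, 5.32, and 6.05 CPM in Cell, and 0.529 CPM to 4.48 CPM in sorted cells, without overlap between those 3 levels. Cell-Input was 10.9-fold below Tissue-Input (log2 -3.45 ± 0.34, edgeR adjusted p = 3.85e-09) and Sorted-Input 3.77-fold below Cell-Input (log2 -1.91 ± 0.27, adjusted p = 6.65e-07). Dounce-Input held 17.3, 17.1, 17.8, and 16.9 CPM, less than Tissue-Input at 98.6, 111, 101, and 105 CPM (6.01-fold, log2 -2.59 ± 0.16) and more than Cell(-)Inhib-Input at 3.25, 6.33, 7.05, and 7.73 CPM (2.83-fold, log2 1.50 ± 0.17, adjusted p = 1.89e-07).

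The neuronal markers were lower than in Tissue in every other preparation, as Asns and Chac1 were. All 6 fell from Tissue to Cell in TRAP, from 4678-5386 CPM to 100-292 CPM, and in the cell preparation comparison their sum was 5570-6703 CPM in Tissue-TRAP, 945-1672 CPM in Dounce, 67.6-158 CPM in Cell(-)Inhib and 39.4-149 CPM in Cell(+)Inhib. Input gave 7292-7548 CPM in Tissue, 3290-3569 CPM in Dounce, 365-696 CPM in Cell(-)Inhib, and 293-754 CPM in Cell(+)Inhib. In bulk RNA, fewer cells of a type and less RNA per cell cannot be told apart. The part of the neuronal transcripts in the fall of Asns and Chac1 was not tested. In Input of the cell preparation comparison, Tissue was highest, Dounce next and the suspensions lowest, for the marker sum and for Asns. Chac1 did not follow that order below Tissue, with 0.41-1.15 CPM in Dounce, 0.191-1.78 CPM in Cell(-)Inhib and 0.35-0.743 CPM in Cell(+)Inhib. In TRAP the marker sum of Dounce lay above those of both suspensions, whereas Asns and Chac1 of Dounce overlapped those of the suspensions. Sorted TRAP held 2.99-8.32 CPM of the markers, and its Asns level overlapped that of Cell-TRAP.

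**Figure D2:**
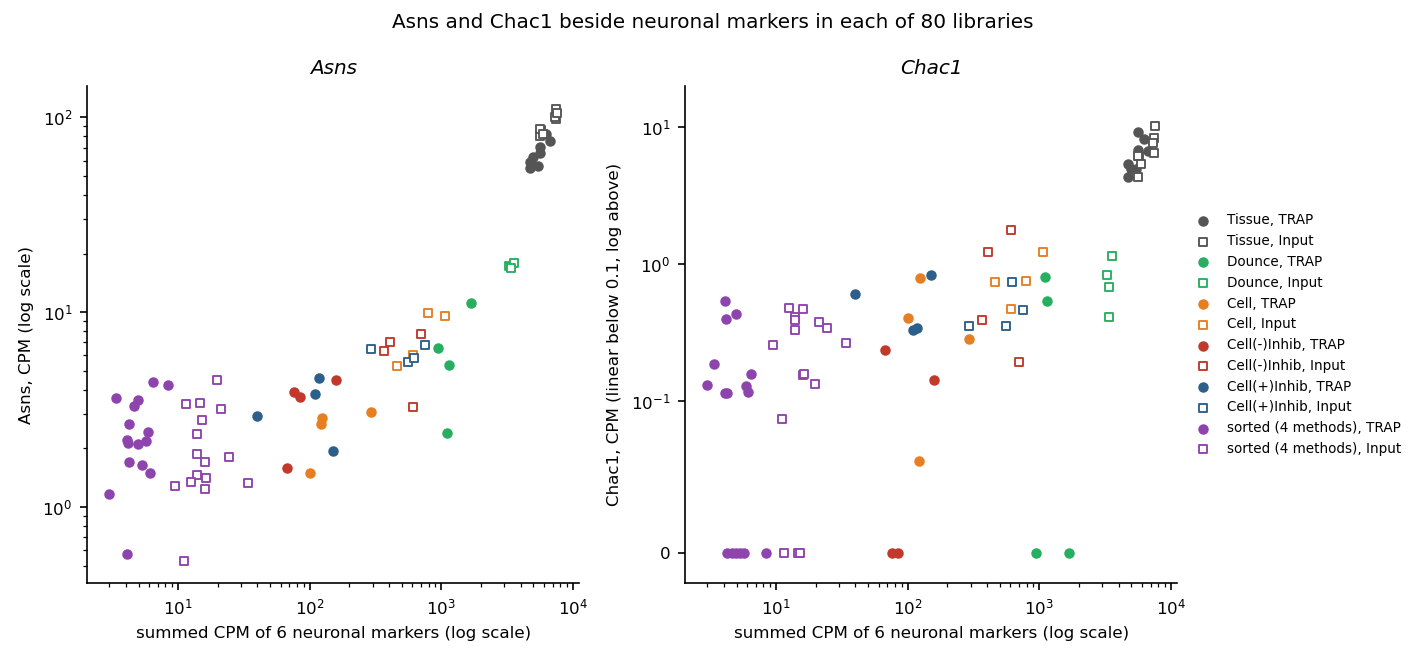
Asns (left) and Chac1 (right) CPM against the summed CPM of 6 neuronal markers in the 80 libraries, on log axes (Chac1 linear below 0.1), by preparation and fraction, each fraction of each comparison scaled separately. Tissue libraries form the upper right group in both panels, and the sorted libraries, at 2.99-33.9 CPM of the markers, hold 0.529-4.48 CPM of Asns.

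Sesn2 encodes sestrin 2, a leucine sensor that restrains growth signalling. TRAP levels in the sort comparison were 10.1, 10.2, 9.82, and 10.3 CPM in Tissue, 10.3, 11.8, 11.6, and 11.9 CPM in Cell, and 8.91 CPM to 20.2 CPM in sorted cells, where neighbouring groups overlapped. Cell differed from Tissue by 0.17 ± 0.17 log2, a sign that turned with DESeq2's size factors (-0.16). In TRAP of the cell preparation comparison it was 9.81, 8.39, 8.41, and 12.9 CPM in Tissue, 13.2, 16.2, 14.1, and 14.8 CPM in Cell(-)Inhib, 12.4, 14.9, 14.9, and 12.8 CPM in Cell(+)Inhib, and 5.6, 13.2, 4.1, and 7.44 CPM in Dounce. Cell(-)Inhib lay above all Tissue libraries, by 0.56 ± 0.26 log2 (edgeR adjusted p = 0.0572), which is under the fold limit. Dounce-TRAP had 1 library at 13.2 CPM and 3 lower ones, and was 1.86-fold below Cell(-)Inhib (log2 -0.90 ± 0.28, adjusted p = 0.0106), which passed the limit at -1.34 when that library was left out. Dounce-Input, at 5.47, 4.92, 1.53, and 3.25 CPM, was 2.36-fold below Tissue-Input at 10.2, 9.27, 11.2, and 6.74 CPM (log2 -1.24 ± 0.29, adjusted p = 0.000787).

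**Figure D3:**
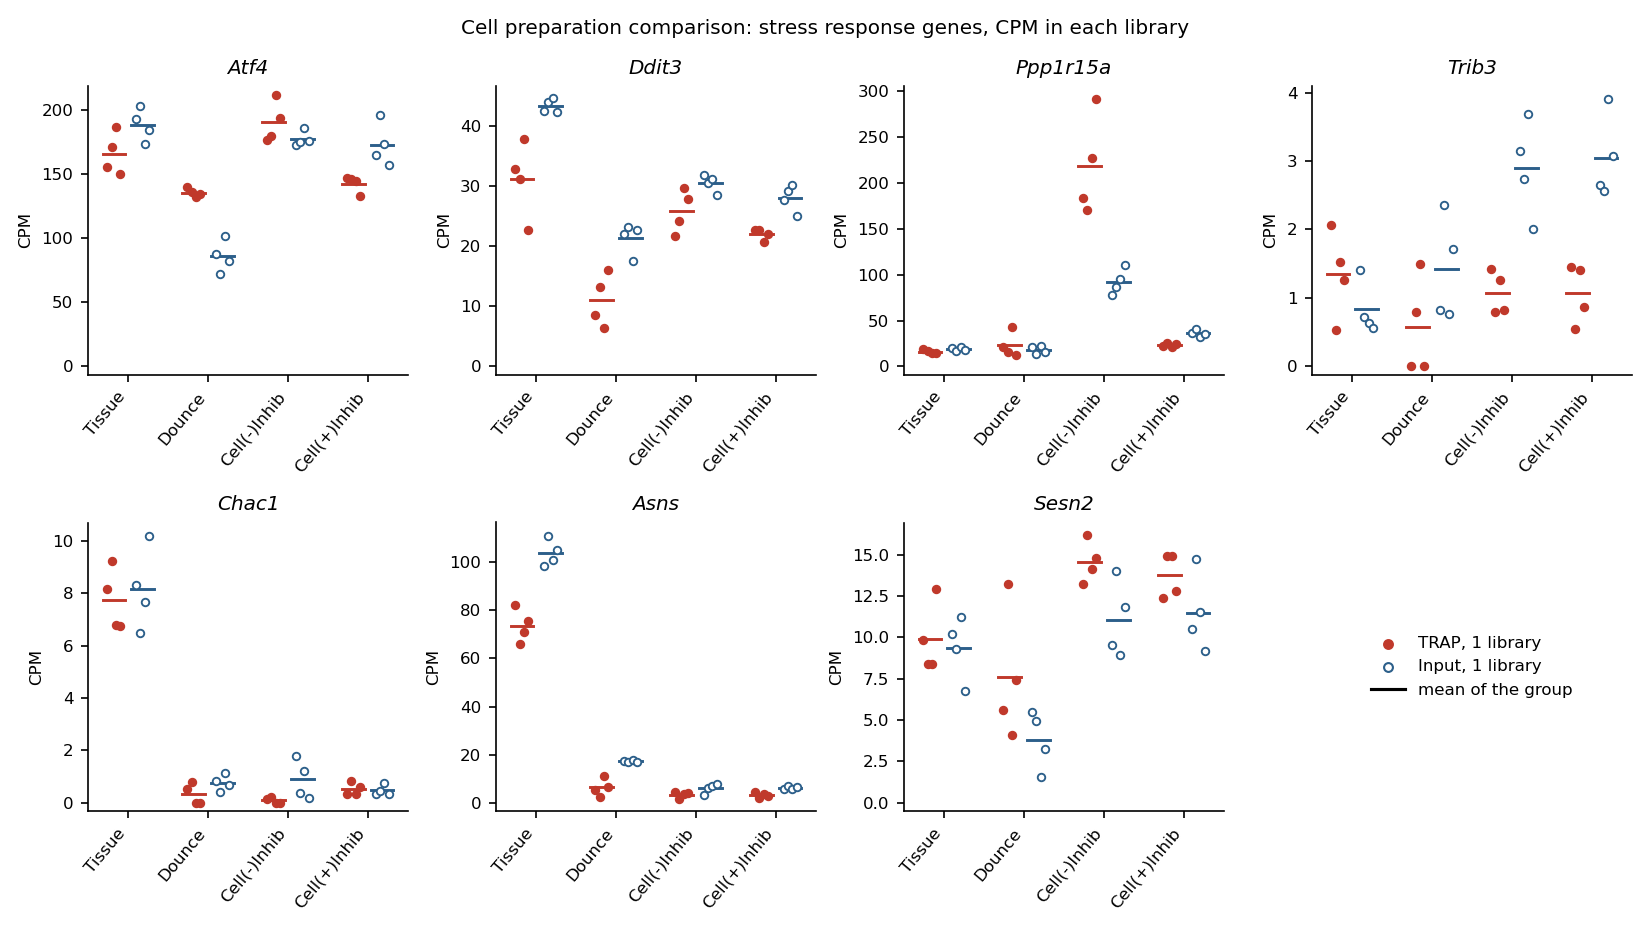
CPM of each member (one panel each) in every library of the cell preparation comparison by preparation, red filled circles for TRAP, blue open circles for Input and a bar for each mean, scaled separately for TRAP and Input. The 4 Cell(-)Inhib-TRAP libraries hold 171-292 CPM of Ppp1r15a and stand above all others, and the Dounce libraries are lowest for Ddit3 in both fractions.

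Levels per kilobase of exon differed widely among members. In Tissue-TRAP of the sort comparison the mean level was 50.8 CPM per kb for Atf4, 21.3 for Asns, 13.4 for Ddit3, 3.99 for Ppp1r15a, 2.98 for Chac1, 2.91 for Sesn2, and 0.38 for Trib3. In Cell-TRAP Atf4 (61.3 CPM per kb) and Ppp1r15a (56.4 CPM per kb) led, and Asns stood at 0.922 and Chac1 at 0.236 CPM per kb. Ppp1r15a thus moved from the fourth to the second level.

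The members called in the other TRAP comparisons can be read against the share of all genes called. Sorted-TRAP against Tissue-TRAP called 3 of 7, Asns, Chac1, and Ppp1r15a (62.8% of all genes). Sorted-TRAP against Cell-TRAP called 0 of 7 in edgeR (24.4% of all genes), with 2 at an unadjusted p under 0.05, and DESeq2's Wald test and limma each called 2, Trib3 and Chac1. Among the 4 sorts, edgeR called 0 of 7 in TRAP (4.17% of all genes), as did DESeq2 and limma, and 0 of 7 in Input (7.42%), where DESeq2 and limma called 1, Chac1, and 2 members had an unadjusted p under 0.05 in each fraction. Atf4 was among these, at an adjusted p of 0.00663 in TRAP and 0.0339 in Input, with largest differences of 0.52 and 0.56 log2. Cell(+)Inhib-TRAP against Tissue-TRAP called 2 of 7, Asns and Chac1, with 52.8% of all genes called. Dounce-TRAP called 3 of 7 below Tissue-TRAP, Ddit3, Asns, and Chac1 (50.3%), 2 below Cell(-)Inhib-TRAP, Ddit3 and Ppp1r15a (28.7%), and 0 against Cell(+)Inhib-TRAP (29.1%), where 3 had an unadjusted p under 0.05, DESeq2's Wald test called 1 (Ddit3) and limma called 3 (Ddit3, Trib3, and Sesn2). In each of the TRAP comparisons of this paragraph the share of members called, at most 42.9%, was at or under that of all genes.

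In Input, Cell against Tissue called 4 of 7, Trib3 and Ppp1r15a higher and Asns and Chac1 lower, with 46% of all genes called. Sorted-Input against Cell-Input called 4 of 7, Ppp1r15a higher and Trib3, Asns, and Chac1 lower (51.8%). Sorted-Input against Tissue-Input called 3 of 7, Ppp1r15a higher and Asns and Chac1 lower (64.2%). Cell(-)Inhib-Input against Tissue-Input called the 4 genes that Cell-Input did (44.7%), and Cell(+)Inhib-Input called 3 of them (45.6%), with Ppp1r15a at 1.91-fold (log2 0.93 ± 0.15, adjusted p = 1.65e-05) under the fold limit. The inhibitor contrast in Input called Ppp1r15a alone (1 of 7, 0.311% of all genes). Dounce-Input called 5 of 7 below Tissue-Input, Atf4, Ddit3, Asns, Chac1, and Sesn2 (50.1% of all genes), with a median of -1.14 log2 for the members against 0.10 for all genes. It called 4 of 7 against Cell(-)Inhib-Input (56.8%), Asns higher and Atf4, Sesn2, and Ppp1r15a lower, and 5 of 7 against Cell(+)Inhib-Input (56.9%), which adds Trib3. The Dounce groups came from separate mice, and the study describes their Input RNA as of low integrity, so preparation, mice and RNA quality cannot be told apart. Cell(-)Inhib, Cell(+)Inhib and the sorted cells also came from other mice than Tissue, and the sorted cells from other mice than Cell. Preparation and mice cannot be told apart in those contrasts either. In both fractions the study reports stronger 3′ bias of read coverage for Tissue and Dounce than for Cell(-)Inhib and Cell(+)Inhib, and its part was not tested.

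**Figure D4:**
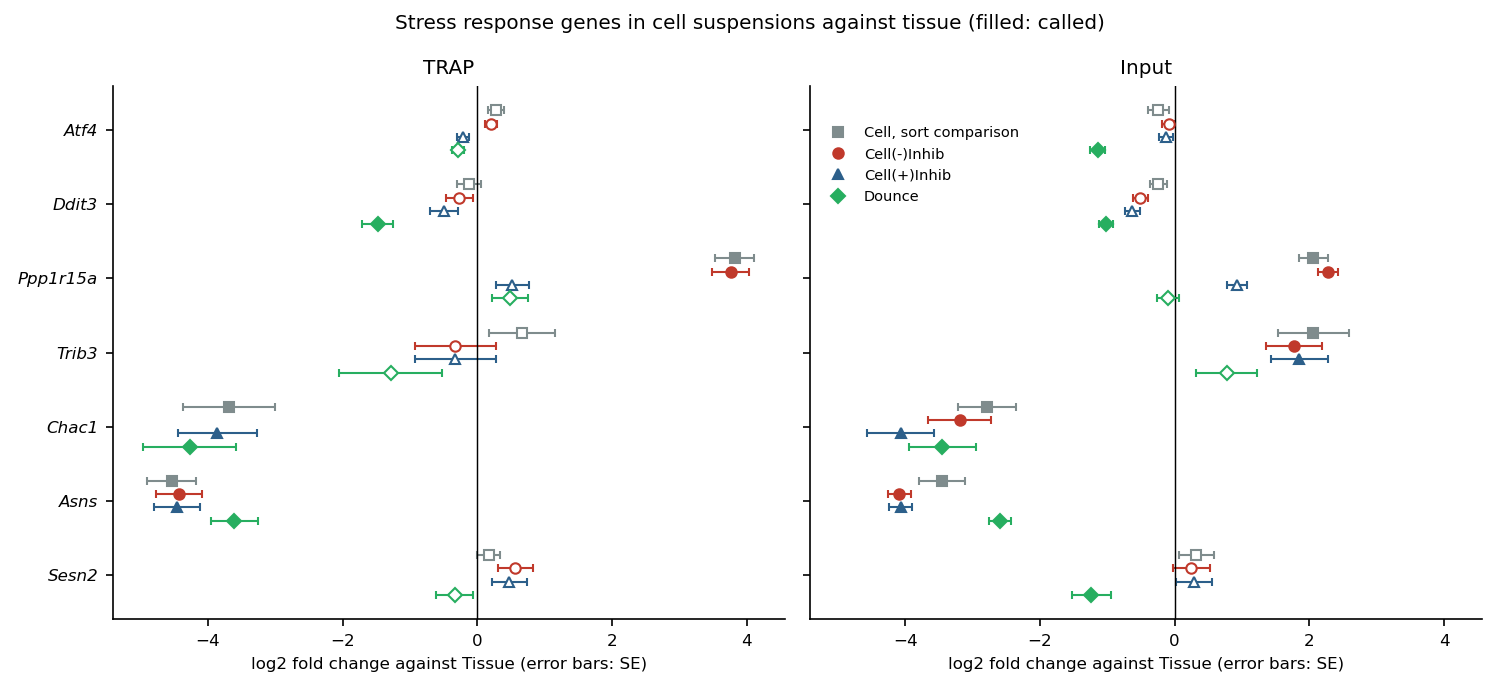
Log2 fold change ± SE against Tissue of the same fraction for each member in Cell, Cell(-)Inhib, Cell(+)Inhib, and Dounce, TRAP left and Input right, filled where called by edgeR at FDR under 0.1 and fold above 2. Ppp1r15a is filled to the right in Cell and Cell(-)Inhib in both panels, Asns and Chac1 are filled to the left throughout, and Chac1 in Cell(-)Inhib-TRAP is not drawn because its libraries held 3 counts or fewer.

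TRAP was then compared with Input within each preparation, in a joint fit of both fractions whose scaling differs from that of the levels above. In Tissue, 0 of 7 members were called in the sort comparison (11.1% of all genes) and 0 of 7 in the cell preparation comparison (10.5%), with 1 and 0 at an unadjusted p under 0.05 in edgeR and no call by DESeq2 or limma. Asns there differed by -0.33 ± 0.31 log2 and -0.28 ± 0.22 log2, and Chac1 by 0.02 ± 0.52 log2 and 0.14 ± 0.44 log2. In the suspensions more members differed. The median of all genes was -0.07 log2 in Cell, -0.42 in Cell(-)Inhib and -0.39 in Cell(+)Inhib. Microglial markers were higher in TRAP there, with medians of 2.80 (Cell), 2.38 (Cell(-)Inhib) and 2.24 log2 (Cell(+)Inhib). Neuronal markers were lower, at -2.01, -2.46 and -2.42, and the part of these markers was not tested. Cell-TRAP held 3.38-fold more Ppp1r15a than Cell-Input (log2 1.76 ± 0.25, edgeR adjusted p = 3.72e-08) and 2.52-fold less Asns (log2 -1.34 ± 0.38, adjusted p = 0.00178), 2 of 7 members where 47.6% of all genes were called. Trib3 missed the call in Cell but was called lower in 13 of 14 fits that left out 1 mouse (-1.41 to -1.04 log2 over all 14). With DESeq2's size factors Trib3 (-1.39 log2) and Chac1 (-1.20 log2) were both called lower in Cell-TRAP. Cell(-)Inhib-TRAP held 2.41-fold more Ppp1r15a (log2 1.27 ± 0.20, adjusted p = 2.05e-06) and 2.61-fold less Trib3 (log2 -1.39 ± 0.50, adjusted p = 0.0137) than its Input, and with Chac1, at 3 counts or fewer in TRAP, 3 of 7 were called (47.3% of all genes). The fit with the mouse as a block did not test Chac1 and called 2. Cell(+)Inhib-TRAP called Trib3 alone, 2.79-fold lower (log2 -1.48 ± 0.50, adjusted p = 0.00937), 1 of 7 with 45.6% of all genes called, and Ppp1r15a there was 0.63 ± 0.21 log2 lower in TRAP. Sorted cells showed 0 of 7 calls in edgeR (18.9% of all genes) and by DESeq2 and limma, with 2 at an unadjusted p under 0.05, and a Ppp1r15a difference of -0.05 ± 0.12 log2. All genes had a median of -0.19 log2 in sorted cells.

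In Dounce, 3 of 7 were called between fractions (47.5% of all genes), and all genes had a median of -0.21 log2. Microglial markers were higher in TRAP (median 4.11 log2) and neuronal markers lower (-1.41), and their part was not tested. Sesn2 was 2.57-fold higher in TRAP (log2 1.36 ± 0.31, adjusted p = 0.000269), Asns was 2.24-fold lower (log2 -1.16 ± 0.30, adjusted p = 0.000942), and Atf4 was 2.05-fold higher (log2 1.03 ± 0.10, adjusted p = 9.39e-11). The Atf4 value lay under the fold limit with DESeq2's size factors (0.80) and without either of 2 of the 4 mice (down to 0.83), and it was 0.60 when at least 10 counts were required in every library. Asns moved to -0.84 without mouse 180 and to -1.84 without mouse 181.

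The interaction of preparation and fraction tested whether TRAP and Input moved by different amounts between preparations. The median of all genes was -0.29 log2 from Tissue to Cell and -0.61 from Tissue to Cell(-)Inhib. Microglial markers gave medians of -1.68 and -2.27 there, and neuronal markers -2.04 and -2.42. Their part in the member values was not tested. From Tissue to Cell, Ppp1r15a rose by 1.85 ± 0.36 log2 more in TRAP than in Input (edgeR adjusted p = 3.62e-05) and Asns fell by 1.01 more in TRAP (-1.01 ± 0.49, adjusted p = 0.0745), 2 of 7 members with 35.3% of all genes called, and with the mouse as a block Trib3 was called as well (-1.32, adjusted p = 0.025). From Tissue to Cell(-)Inhib, Ppp1r15a rose by 1.29 ± 0.30 log2 more in TRAP (adjusted p = 0.000606), Trib3 differed by -2.29 ± 0.73 log2 (adjusted p = 0.00902), and Chac1 was called too, 3 of 7 with 38.6% of all genes called. The fall of Ppp1r15a with inhibitors was larger in TRAP than in Input by 1.90 log2 (-1.90 ± 0.29, adjusted p = 0.000472), 1 of 7 members in a test that called 0.145% of all genes.

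Other genes of the pathway were followed in 5 lists of 67 genes. These were control of eIF2 (kinases, the exchange factor eIF2B and phosphatase partners), amino acid supply, tRNA synthetases, partners and other targets of ATF4, and chaperones of the endoplasmic reticulum. From Tissue-TRAP to Cell(-)Inhib-TRAP, where all genes had a median of -0.13 log2 and 53.2% were called, 42% of them higher, 4 of 12 eIF2 control genes were higher and 0 lower (median 0.40). Among them were the kinases Eif2ak2 (PKR), at 1.65 ± 0.16 log2, and Eif2ak3 (PERK), at 1.31 ± 0.16 log2. Of 18 amino acid supply genes 6 were higher and 2 lower (median 0.38), with the transporter chain Slc3a2 up by 1.91 ± 0.09 log2 (edgeR adjusted p = 2.17e-12) and the cationic transporter Slc7a3 at -3.68 ± 0.59 log2. Of 12 tRNA synthetases 3 were higher and 0 lower (median 0.52), led by Mars at 1.44 ± 0.10 log2. Of 8 tested chaperones 5 were higher and 0 lower (median 1.05), such as Dnajb9 at 1.39 ± 0.11 log2 and Hsp90b1 at 1.30 ± 0.07 log2. Of 15 tested partners and other targets 7 were higher and 3 lower (median 0.98). In the same contrast all 7 microglial markers were higher (median 2.53 log2), all 4 endothelial markers were higher (1.82) and all 6 neuronal markers were lower (-6.10), and their part in the list counts was not tested.

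Atf3, a transcription factor of the same family that many early stimuli induce, moved farthest. Its TRAP level was 7.03-10.6 CPM in Tissue, 694-1498 CPM in Cell(-)Inhib, 21-22.8 CPM in Cell(+)Inhib, and 9.58-26.2 CPM in Dounce. It rose by 7.0 ± 0.32 log2 from Tissue to Cell(-)Inhib and fell by 5.59 ± 0.29 on the log2 scale with the inhibitors (edgeR adjusted p = 2.37e-10). Cebpb, a C/EBP partner of ATF4, was at 233-472 CPM in Cell(-)Inhib-TRAP and 78.1-103 CPM in Cell(+)Inhib-TRAP (log2 -1.74 ± 0.21, adjusted p = 3.51e-05). These were the only 2 of the tested list genes called between Cell(+)Inhib and Cell(-)Inhib, in TRAP and in Input alike, and the other lists counted 0. In TRAP the median was -0.26 for partners and other targets, the list of Atf3 and Cebpb, and from -0.08 to 0.03 for the other lists. Atf3 and Cebpb fell in that contrast as Ppp1r15a did, and Asns, Chac1, Trib3, Sesn2, and Ddit3 were not called there.

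In Input the lists parted. From Tissue-Input to Cell(-)Inhib-Input, where 44.7% of all genes were called, 57.3% of them higher, 11 of 18 amino acid supply genes were higher and 1 lower (median 1.30 against 0.05 for all genes), with Slc7a5, the light chain partner of Slc3a2, at 2.16 ± 0.14 log2 and Psat1, an enzyme of serine synthesis, at 1.70 ± 0.14 log2 (edgeR adjusted p = 1.66e-09). The tRNA synthetases had 0 higher and 3 lower (median -0.61). In Dounce-Input, where 50.1% of all genes were called, 6 of 12 tRNA synthetases were lower and 0 higher (median -0.62 against 0.10 for all genes), Aars by -2.23 ± 0.09 log2. Of 12 eIF2 control genes 4 were lower and 2 higher there (median -0.45), the latter led by Eif2ak2 at 3.36 ± 0.18 log2. In Dounce-TRAP against Tissue-TRAP, where 50.3% of all genes were called and the median of all genes was -0.06, 3 of 12 tRNA synthetases were lower and 0 higher (median 0.21), 4 of 18 amino acid supply genes were higher and 5 lower (median 0.01), and 3 of 8 chaperones were higher and 0 lower (median 0.80). Asns, at 3.25-7.73 CPM in Cell(-)Inhib-Input against 98.6-111 CPM in Tissue-Input, therefore moved opposite to most called genes of the amino acid list. The oligodendrocyte and endothelial markers (8804-21109 CPM and 930-1245 CPM in Cell(-)Inhib-Input, 3996-4984 CPM and 55.2-61.4 CPM in Tissue-Input) moved with that list. So did the markers of astrocytes (2658-4160 against 1040-1135 CPM), microglia (4659-8237 against 269-303 CPM), macrophages at the borders of the brain, and blood. Only the neuronal markers were lower, and the part of all these markers was not tested.

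**Figure D5:**
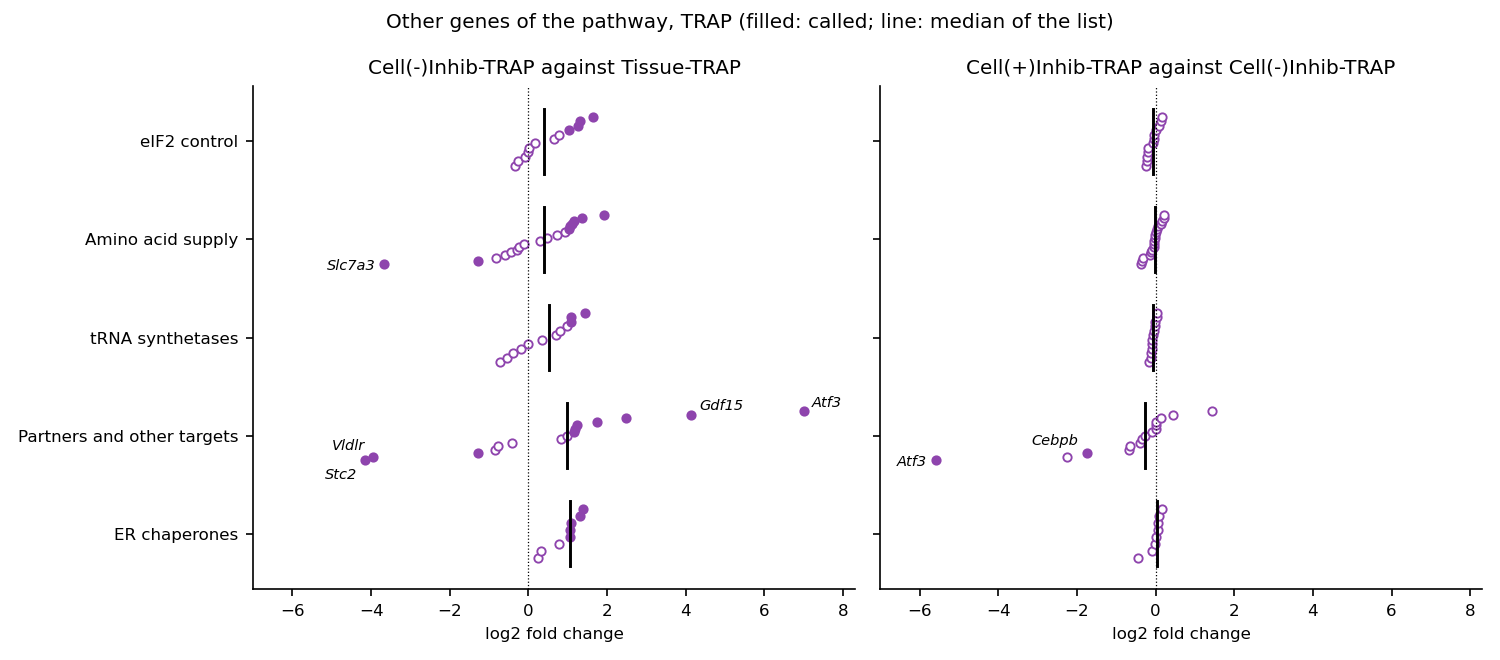
Log2 fold change of each gene of 5 pathway lists in TRAP, Cell(-)Inhib against Tissue and Cell(+)Inhib against Cell(-)Inhib, filled where called by edgeR at FDR under 0.1 and fold above 2, with a line at each list's median. Atf3 and Cebpb are the filled genes of the second contrast, at -5.59 and -1.74.

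Members did not move as a block. Over the 24 TRAP libraries of the sort comparison and the 16 of the cell preparation comparison, Pearson's r of log2(CPM + 1) was 0.942 and 0.893 between Asns and Chac1, -0.943 and -0.450 between Asns and Ppp1r15a, 0.614 and 0.690 between Atf4 and Ppp1r15a, and -0.545 and 0.105 between Atf4 and Asns. These libraries share preparations, mice and scaling, so the values describe the groups as much as the genes. By the lower of both r among 14427 genes, the patterns most like Ppp1r15a were those of Junb (0.975), Ccl2 (0.972), and Jun (0.970), and the most like Atf4 were Zfand5 (0.801), Sertad1 (0.781), and Actg1 (0.722). Asns was most like 1110032F04Rik (0.970), Lhfpl5 (0.970), and Gm9866 (0.969), and Chac1 most like Dleu7 (0.977), Tekt5 (0.974), and Flywch1 (0.973). Sesn2 was nearest to Jup (0.797), Tubgcp2 (0.785), and Rangap1 (0.768), Trib3 to Icam2 (0.599), Kctd10 (0.575), and Perp (0.575), and Ddit3 to Siah2 (0.528), Egr3 (0.525), and Marcksl1 (0.525).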

How the data were processed

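RNA was sequenced as stranded poly(A) libraries. The authors trimmed reads, aligned them to mm10 with regard to strand in Strand NGS v4.0, removed duplicates, and deposited them summed per gene. The expected count values that the authors deposited were whole numbers in 33.2% of cases for the sort comparison and 20.8% for the cell preparation comparison. The deposited log2 values were normalized by the authors with DESeq2 and set per gene to the median of Tissue-Input. These log2 values served only as an alternative, as did an earlier table of 24 libraries without Dounce. Listed genes exceed 5 reads throughout at least 1 group. From gene identifiers, 23 symbols that had become dates were restored per file. Columns of the authors' comparisons (fold changes, p-values) were not used.

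Counts were rounded to whole numbers, filtered to genes above 5 counts throughout at least 1 fitted group, scaled by TMM and tested with edgeR 4.0.16 (glmQLFit and glmQLFTest, two-sided) in R 4.3.3, over all groups of a fraction, or over both fractions for TRAP against Input and interactions. Genes were called at an FDR under 0.1 and a fold change above 2, the limits of the study, adjusted over all tested genes. Standard errors were derived as |log2 fold change|/√F. The members and lists were chosen with earlier results of these data known. The rule for named genes took all 7 members, and at most the 3 called genes with the largest change per list and comparison. Atf3, Cebpb, and the marker sums were read at every preparation. No fitted fold is given where all libraries of a group hold 3 counts or fewer, except for the interaction values of Chac1 among the flagged results. Intervals of count ratios cover counting error only, those of fold changes come from the edgeR fit, and precision follows the depth given with the results.

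Groups came from the sample labels and mouse numbers from the sample titles. Some groups share mice, and the sorted contrasts treat their libraries as independent. Deviations of same-mouse samples from group means correlated by -0.15 to 0.42 between fractions and by -0.04 to 0.45 between preparations, and pairing by mouse follows from the design. Alternatives were DESeq2 1.42.0 size factors and Wald or likelihood ratio tests, limma 3.58.1 on the deposited log2 values, other filters, a mouse block, the earlier table, and each library or mouse left out. The test code was checked on simulated counts.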

Additional observations from a re-analysis of the deposited data

Results flagged for a closer look

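In 126 sets of a member and a group of 4 or 5 libraries, 3 held a library far from the rest by Dixon's criterion, where chance gives about 5%, or 6.3 sets. Chac1 stood at 0.534 CPM in 1 FACSAria-TRAP library (mouse 945), with 0 CPM in the other 3. Atf4 stood at 446 CPM in 1 autoMACS-Input library (mouse 72), against 228 CPM to 242 CPM in the other 3. Atf4 stood at 133 CPM in 1 Cell(+)Inhib-TRAP library (mouse 1362), against 145 CPM to 147 CPM.

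With dissociation or inhibitors, some members differed by unlike amounts in TRAP and Input, by the interaction test of edgeR. The median of all genes was -0.29 log2 for Cell, -0.61 for Cell(-)Inhib and -0.04 for the inhibitors. Cell type markers shifted as well from Tissue to both suspensions, and their part was not tested. From Tissue to Cell the difference of the log2 fold changes (TRAP minus Input) was 1.85 for Ppp1r15a and -1.01 for Asns. From Tissue to Cell(-)Inhib it was 1.29 for Ppp1r15a and -2.29 for Trib3. The value of -3.13 for Chac1 depends on the prior count of the model, since Cell(-)Inhib-TRAP held 3 counts or fewer per library, and it was -4.16 without mouse 157. From Cell(-)Inhib to Cell(+)Inhib it was -1.90 for Ppp1r15a.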

How the results depend on the processing

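Across the alternatives, 164 counts of called members stayed within 1.5 times the value reported, 27 did not, and no called value turned its sign. With at least 10 counts in every library, the low genes left the test (in TRAP against Input of Dounce Atf4 stayed in it at 0.60 log2, under the fold limit), and 1 member was called in Cell-Input and in Sorted-Input against Tissue-Input, in Sorted-Input against Cell-Input, in Cell(+)Inhib-TRAP and Cell(+)Inhib-Input against Tissue, in TRAP against Input of Cell, Dounce, and Cell(-)Inhib, and in the interactions of Cell and of Cell(-)Inhib with Tissue. Under that filter 2 were called in Cell(-)Inhib-Input against Tissue-Input, 3 in Dounce-Input against Tissue-Input and against Cell(+)Inhib-Input, and 0 in TRAP against Input of Cell(+)Inhib. Sorted-TRAP against Cell-TRAP (0 as reported) gave 1 with DESeq2's size factors and 2 with DESeq2's Wald test or limma, Dounce-TRAP against Cell(+)Inhib-TRAP gave 1 with size factors, the Wald test or no filter and 3 with limma, and Dounce-TRAP against Cell(-)Inhib-TRAP gave 4 with limma. TRAP against Input of Cell gave 4 with each of size factors, the Wald test and limma, and the sorts in Input gave 1 with the likelihood ratio test and limma. Leaving out 1 library or mouse gave ranges of 0 to 2 (Sorted-TRAP against Cell-TRAP), 0 to 1 (the sorts, TRAP and Input), 2 to 4 and 0 to 3 (Dounce-TRAP against Cell(-)Inhib and Cell(+)Inhib), 3 to 5 (Dounce-Input against Cell(+)Inhib-Input), 2 to 4, 1 to 3 and 1 to 2 (TRAP against Input of Cell, Dounce, and Cell(+)Inhib), and 1 to 3 (the interaction of Cell). Without Dounce-TRAP mouse 180, Asns and Sesn2 were called against both suspensions (1.14 and -1.34 log2 against Cell(-)Inhib). Atf4, Trib3, and Ppp1r15a in Dounce-Input against Cell(+)Inhib-Input each lost the call without 1 of 3 or 4 libraries (down to -0.94, -0.86, and -0.91), Atf4 against Cell(-)Inhib-Input without mouse 180 (-0.97), and Asns in the interaction of Cell without mouse 947. Trib3 in TRAP against Input of Cell(-)Inhib was -0.93 in the earlier table. The causes of these shifts were not tested beyond the filter and the sample left out.

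With the mouse as replicate block, member calls changed for Trib3 in the interaction of Cell (3 called) and for Chac1 in TRAP against Input of Cell(-)Inhib (2 called), and for no other. Over all genes the block moved the calls from 94 to 150 between Cell(+)Inhib-TRAP and Cell(-)Inhib-TRAP, from 23 to 53 in their interaction and from 2994 to 1365 in TRAP against Input of sorted cells. That interaction gave 41 with the Wald test and 45 in the earlier table. Among the sorts, 624 calls in TRAP became 1148 with the likelihood ratio test and 394 with sorted groups alone, and 1169 in Input became 1917 and 484. DESeq2's size factors moved the median of all genes by -0.33 log2 in Cell-TRAP against Tissue-TRAP, -0.35 in Sorted-TRAP against Tissue-TRAP, -0.41 in TRAP against Input of Cell, and -0.32 in its interaction, and the share of called genes that were higher from 46.2% to 35%, 35.2% to 21%, and 16.3% to 5.23% in Cell-TRAP against Tissue-TRAP, TRAP against Input of Cell, and its interaction. The filter of 10 counts lowered the calls over all genes by more than 1.5 times in most comparisons, for example from 8126 to 4381 (Cell-TRAP against Tissue-TRAP), from 3651 to 440 (Sorted-TRAP against Cell-TRAP), and from 7535 to 2734 (TRAP against Input of Cell). Chac1 and Trib3 are limited by depth in all preparations but Tissue for Chac1.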
